A study of Mus musculus with 3 samples.

Results

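Cholesterol efflux and lipoprotein genes were followed in macrophages from the mouse heart through 6 genes chosen by symbol, Abca1, Abcg1, Apoe, Apoc1, Mylip and Nr1h3, out of 30406 genes measured in all libraries. Cells positive for CD45, F4/80 and CD11b had been sorted from the collagenase-digested hearts of mice, wild type and 32 to 34 weeks old, and profiled by droplet-based 3′ single-cell RNA sequencing. There was 1 library per diet: a high fat diet (HFD), a Western diet (WD) and a control diet (CD). The sources used here do not give what the diets contained, how long they were fed or how many mice a library pooled. With 1 library per diet there is no test between diets, and the 3 diet comparisons share libraries.

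Macrophages that take in lipoproteins and dying cells cannot break down the sterol ring, and they dispose of cholesterol by exporting it. Oxysterols, which are oxidised products of cholesterol, activate the nuclear receptors LXR alpha, encoded by Nr1h3, and LXR beta, encoded by Nr1h2, which bind DNA together with a retinoid X receptor and switch on export genes. Abca1 is the transporter that loads cholesterol and phospholipid onto lipid-poor apolipoprotein A-I, Abcg1 passes cholesterol to mature HDL, Apoe and Apoc1 are apolipoproteins encoded side by side in one gene cluster, and Mylip (also called Idol) is a ubiquitin ligase that limits the uptake of lipoproteins.

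Barcodes with 1000 UMIs and 200 genes or more, and with no more than 10% of UMIs from mitochondrially encoded genes, left 2717 HFD, 4775 WD and 2679 CD cells. A UMI is the tag of 1 captured RNA molecule. Their median depth was 2751 UMIs in HFD, 11668 in WD and 4223 in CD, and the mitochondrial limit removed 11.9%, 26.1% and 6.33% of barcodes in that order. The WD files were written by another version of the alignment software (7.2.0, against 3.0.1 for HFD and CD), and the CD library lists only 92 of the 6885 WD barcodes (1.34%), although the labels give the same kit. The HFD and CD cells had 15 barcodes in common, the WD and CD cells 1, and the WD and HFD cells 0. Cells were called C1q-high where C1qa, C1qb and C1qc made up at least 0.3% of their UMIs, which held for 2002 HFD (73.7%), 3717 WD (77.8%) and 2293 CD cells (85.6%), and C1q-low otherwise (715, 1058 and 386 cells). All 12 macrophage markers had UMIs in both C1q-high and C1q-low cells. In C1q-high cells they summed to 29360 CPM (UMIs scaled to one common total per sum) in HFD, 15721 CPM in WD and 27735 CPM in CD. The sums in C1q-low cells were 1428, 3827 and 2880 CPM. These markers include C1qa, C1qb and C1qc, so the C1q rule itself fixes part of this gap. Markers of other cell types were found in C1q-low cells: 8 endothelial markers summed to 14678 CPM there in HFD and 12129 CPM in CD but to 55.3 CPM in WD, where NK, T and B cell markers reached 1203 CPM.

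In the GRCm38 genome, Abca1 spans chr4:53030787-53159895 on the minus strand, Abcg1 chr17:31057675-31117988 on the plus strand, Mylip chr13:45389742-45412022 on the plus strand and Nr1h3 chr2:91184061-91202834 on the minus strand. Apoe (chr7:19696109-19699188) and Apoc1 (chr7:19689481-19692660) lie on the minus strand 3448 bases apart. Abcg1 overlaps the rRNA gene Gm25447 on its own strand, and Nr1h3 overlaps the transcript Gm13783 on its own strand and the snRNA gene Gm23390 on the other.

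The upstream sequences of Abca1 and Apoe are shown because these were the members that moved together between the cell groups described below. They are the 250 bases before the gene start in RefSeq (GRCm38.p6), read 5′ to 3′ along the gene, at chr4:53159896-53160145 for Abca1 and chr7:19699189-19699438 for the most upstream of 3 Apoe starts. Capitals mark the best match in Abca1 to a consensus LXR element, a direct repeat of AGGTCA with 4 bases between (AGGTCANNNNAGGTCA).
Abca1: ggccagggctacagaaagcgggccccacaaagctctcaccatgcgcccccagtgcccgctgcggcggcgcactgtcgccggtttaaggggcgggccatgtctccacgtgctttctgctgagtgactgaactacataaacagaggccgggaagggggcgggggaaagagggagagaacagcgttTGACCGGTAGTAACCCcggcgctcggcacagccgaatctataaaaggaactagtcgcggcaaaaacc
Apoe: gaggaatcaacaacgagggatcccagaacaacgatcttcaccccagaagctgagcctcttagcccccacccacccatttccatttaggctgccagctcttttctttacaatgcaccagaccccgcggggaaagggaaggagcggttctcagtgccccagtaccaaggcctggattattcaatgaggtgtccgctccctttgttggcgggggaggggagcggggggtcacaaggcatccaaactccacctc
The Abca1 match lay on the reverse strand, 67 to 52 bases before the gene start, and differed from the consensus at 3 of 12 fixed positions. Both strands were searched, and 18.5% of 32851 promoters hold a match that good or better. The match by itself is a description of these letters and not evidence for or against a bound site, and binding was not tested. The best match had 4, 4 and 5 mismatches at the 3 Apoe starts, 4 at both Nr1h3 starts and 6 in Mylip, and 70.6% of promoters hold a match with 4 or fewer. In mouse and human, the LXR-responsive enhancers known for the Apoe cluster lie outside this window.

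Apoe was found in nearly every C1q-high cell, whereas the other 5 genes were sparse. After each cell was thinned to 1000 UMIs, Apoe was detected in 95.6% of C1q-high cells in HFD, 94.6% in WD and 94.9% in CD. The same shares in C1q-low cells were 59.0%, 54.5% and 52.8%. The median C1q-high cell carried 22 Apoe UMIs per 1000 in HFD, 9 in WD and 20 in CD, with 10th to 90th percentiles of 2 to 52, 2 to 22 and 2 to 53, while the median C1q-low cell carried 1 in every library. Apoe was thus unevenly spread even among C1q-high cells, and the 10% of cells with the most Apoe held 27.7% of its UMIs in HFD, 27.3% in WD and 28.4% in CD.

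Abca1 was detected in 8.99% of thinned C1q-high cells in HFD (95% interval 7.77 to 10.3%), 35.9% in WD (34.3 to 37.5%) and 9.46% in CD (8.30 to 10.7%). In C1q-low cells the shares were 1.12%, 22.6% and 1.55%. Without thinning, 24.4% of HFD, 91.2% of WD and 35.4% of CD C1q-high cells had an Abca1 UMI, while the thinned shares of HFD and CD have overlapping intervals. Thinned shares were 2.05%, 4.28% and 2.44% for Abcg1 and 2.30%, 7.67% and 3.40% for Mylip, in the order HFD, WD and CD. The C1q-low cells had shares of 2.52%, 7.09% and 3.37% for Abcg1 and 5.03%, 6.24% and 5.18% for Mylip. The Abcg1 share was thus higher in C1q-low cells in each library, with the widest gap in WD. The Mylip share was higher in C1q-low cells in HFD and CD and lower in WD. Apoc1 and Nr1h3 were each found in under 1% of thinned C1q-high cells of any library, near the level of single UMIs, and their shares give no order. In C1q-high cells with an Abca1 UMI, Apoe averaged 29.4 UMIs per 1000 in HFD, 11.5 in WD and 30.5 in CD, against 25.2, 9.76 and 24.1 in cells without one. Abca1 was found in 10.7% of CD cells with an Abcg1 UMI and 9.43% of those without, in 35.8% and 35.9% in WD, and in 2.44% (1 of 41 cells) and 9.13% in HFD.

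Low-content droplets give the background of free RNA in HFD and CD, the libraries whose files list near-empty barcodes. In barcodes of 10 to 100 UMIs, the Apoe level was 8846 CPM for HFD and 7959 CPM for CD, below the C1q-high cells but above the C1q-low cells, at 2398 and 3378 CPM. A single Apoe UMI in a C1q-low cell therefore cannot by itself be read as expression. Apoe was unevenly spread among C1q-low cells. The 10% with the most held 63.9% of its thinned UMIs in HFD and 74.2% in CD, and the highest cell carried 57 and 107 per 1000. The part of free RNA in these counts was not tested. Abca1 stood at 58.8 CPM in near-empty HFD barcodes and 29.9 CPM in near-empty CD barcodes, against 12.96 and 20.1 CPM in the C1q-low cells of those libraries.

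**Figure D1:**
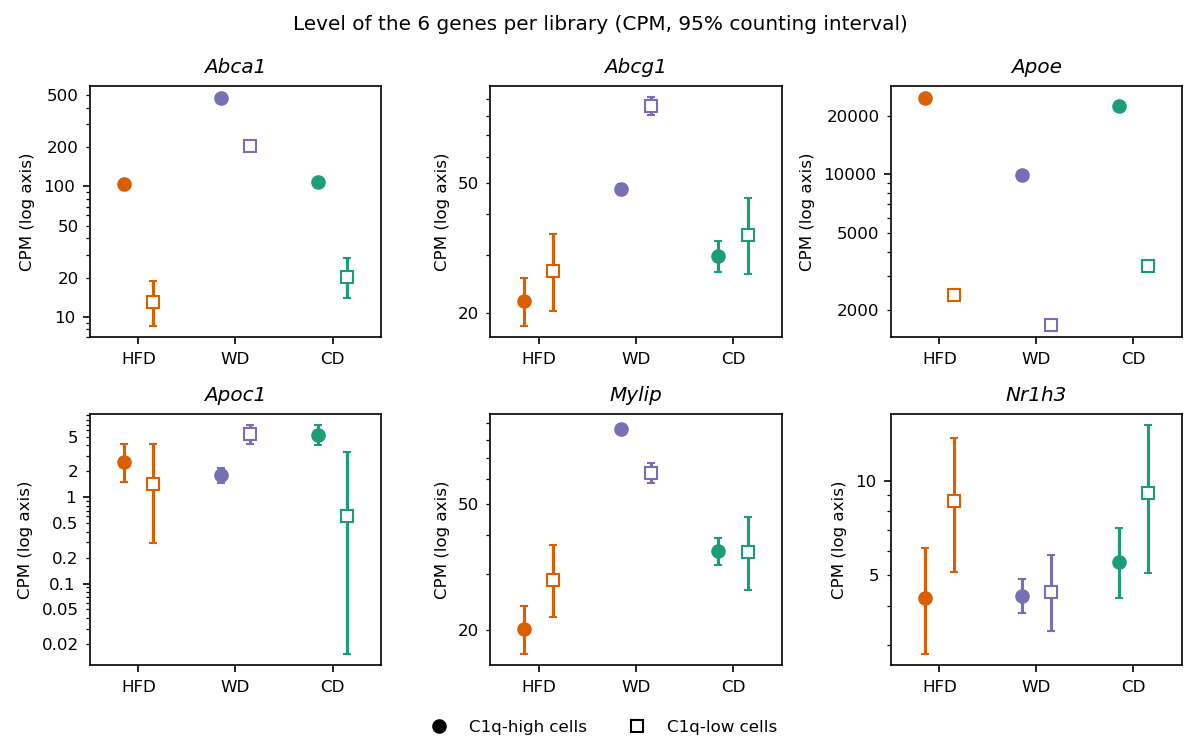
Level of each gene (CPM, log axis) in C1q-high cells (filled) and C1q-low cells (open) of the HFD, WD and CD libraries, with exact Poisson 95% intervals that cover counting error only. Apoe and Abca1 lie higher in C1q-high than in C1q-low cells in all 3 libraries, and Abca1, Abcg1 and Mylip are highest in WD.

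Between C1q-high and C1q-low cells, Apoe and Abca1 rose and no member fell. Apoe had 24670.1 CPM in HFD, 9938 CPM in WD and 22270 CPM in CD in C1q-high cells, against 2398, 1694 and 3378 CPM in C1q-low cells. Every C1q-high value stood above every C1q-low value. The difference was a log2 fold change of 3.12 (SE 0.21, adjusted p = 0.023 in edgeR's quasi-likelihood test over sums per library, with the library as a block and 3 libraries). Abca1 had 103.5, 475.3 and 107.6 CPM in C1q-high cells of HFD, WD and CD, against 12.96, 204.8 and 20.1 CPM in C1q-low cells. The groups overlapped, since the WD C1q-low cells exceeded the C1q-high cells of HFD and CD, but within libraries it was 7.99-fold higher in HFD, 2.32-fold in WD and 5.36-fold in CD, with a log2 fold change of 2.39 (SE 0.40, edgeR adjusted p = 0.046). Of 12146 genes tested, 2.87% rose and 4.27% fell, against 2 and 0 of the 6 members. Both calls ended without the HFD library (edgeR adjusted p = 0.14 for Abca1 and 0.082 for Apoe), without the CD library (0.28 and 0.18) and with a C1q limit of 1% (0.16 and 0.070), and 0 of all genes passed without either library. The Abca1 call also ended with a mitochondrial limit of 20% (edgeR adjusted p = 0.076) and after thinning (0.10). Abcg1 had 21.7, 47.7 and 29.8 CPM in C1q-high cells and 26.9, 85.6 and 34.7 CPM in C1q-low cells, in the order HFD, WD and CD, and was lower in C1q-high cells in 3 of 3 libraries without passing the test (edgeR adjusted p = 0.51). Mylip, Nr1h3 and Apoc1 did not pass either.

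Among C1q-high cells, Lyve1, the hyaluronan receptor of long-lived resident macrophages, was detected in 750 HFD, 2732 WD and 1131 CD cells. Abca1 and Apoe rose and Abcg1 fell where Lyve1 was detected. Detection went with depth: the median was 3333 UMIs in HFD, 13132.5 in WD and 4939 in CD with Lyve1, against 2670.0, 9912 and 3667.5 without. Abca1 had 149.4 CPM in HFD, 508.8 CPM in WD and 136.6 CPM in CD with Lyve1, against 69.7, 328.4 and 70.2 CPM without. Within each library it was 2.14-fold, 1.55-fold and 1.95-fold higher, and the log2 fold change was 0.81 (SE 0.09, edgeR adjusted p = 2.3e-04). Apoe differed less, by 1.23-fold, 1.52-fold and 1.21-fold in HFD, WD and CD (log2 fold change 0.34, SE 0.08, edgeR adjusted p = 0.022). Abcg1 had 16.8, 44.7 and 27.0 CPM with Lyve1 and 25.3, 60.7 and 33.3 CPM without (log2 fold change -0.46, SE 0.10, edgeR adjusted p = 0.0085). By these levels the pair of transporters went in opposite directions in 3 of 3 libraries. The counting interval of the Abcg1 ratio in CD included 1 (0.811, 0.652 to 1.01). Over 10849 genes, 7.57% rose and 6.76% fell, against 2 and 1 of the 6 members. The Abca1 call held when each cell was thinned to 1000 UMIs and in every fit that kept the library block. The Apoe call ended without HFD (edgeR adjusted p = 0.093) or WD (0.12) and at a C1q limit of 1% (0.11), and the Abcg1 call without WD (0.053), in DESeq2 (0.065), after thinning (0.26) and at a C1q limit of 1% (0.22).

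Mylip did not pass this test, with 22.2, 86.4 and 43.7 CPM with Lyve1 and 18.7, 86.5 and 25.1 CPM without, in HFD, WD and CD (edgeR adjusted p = 0.32). It was 1.74-fold higher with Lyve1 in CD and level in WD, and without the WD library it passed (log2 fold change 0.56, edgeR adjusted p = 0.022). Apoc1 and Nr1h3 rested on 5 to 198 UMIs per sum and did not pass.

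Ccr2, the chemokine receptor that marks macrophages renewed from blood monocytes, was detected in 399 HFD, 814 WD and 639 CD cells of the C1q-high class, whose median depth was 3717, 20138 and 5103 UMIs, against 2731, 11201 and 4111.5 without. Where Ccr2 was detected, Apoe, Abca1 and Mylip fell and Abcg1 rose. Apoe had 12466 CPM in HFD, 7579 CPM in WD and 12741 CPM in CD with Ccr2, against 28973, 11255 and 27669 CPM without. It was 2.32-fold, 1.48-fold and 2.17-fold lower with Ccr2, a log2 fold change of -0.93 (SE 0.13, edgeR adjusted p = 0.0010). The median Ccr2-detected cell carried 7, 6 and 9 Apoe UMIs per 1000 in HFD, WD and CD, against 25, 9 and 25 in cells without Ccr2. Abca1 had 38.4, 375.1 and 75.02 CPM with Ccr2, against 126.5, 531.2 and 126.0 CPM without (log2 fold change -0.83, SE 0.15, edgeR adjusted p = 0.0055). The lower level with Ccr2 was seen in 3 of 3 libraries and was widest in HFD, at 3.30-fold, against 1.42-fold in WD and 1.68-fold in CD. Mylip had 12.2, 73.4 and 28.2 CPM with Ccr2, against 23.0, 93.7 and 39.7 CPM without (log2 fold change -0.46, SE 0.10, edgeR adjusted p = 0.011). Abcg1 ran the other way, with 33.7, 65.0 and 39.1 CPM with Ccr2 and 17.4, 38.0 and 24.5 CPM without. It was 1.94-fold, 1.71-fold and 1.60-fold higher in HFD, WD and CD, and its log2 fold change of 0.78 (SE 0.10, edgeR adjusted p = 7.2e-04) passed in every fit that kept the library block.

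Over 10944 genes, 7.36% rose and 7.88% fell with Ccr2, against 1 and 3 of the 6 members. Without the CD library, 1 member (Abca1) was still called lower, and the adjusted p of Apoe was 0.071 and that of Mylip 0.095. The Mylip call also ended without WD (edgeR adjusted p = 0.059), in DESeq2 (0.054) and after thinning (0.072). Nr1h3 had 3.49, 4.57 and 5.10 CPM with Ccr2 and 4.51, 4.14 and 5.78 CPM without (log2 fold change -0.01, SE 0.21), on 6 to 159 UMIs per sum. Apoc1 did not pass. Markers of classical monocytes also differed across this division, all 6 having UMIs in the cells with Ccr2 and summing there to 43.0, 343.3 and 474.6 CPM, against 5.945, 52.3 and 57.8 CPM without (where Ly6c2 was at 0 in HFD). Conventional dendritic markers, of which 3, 7 and 6 of 7 had UMIs with Ccr2 (Xcr1 at 0 in HFD and CD), summed to 126.2, 152.5 and 83.0 CPM with Ccr2 against 51.7, 32.1 and 25.6 CPM without, mostly Cd209a in the cells with Ccr2. The 4 erythroid markers summed to 5.81, 10.1 and 53.2 CPM with Ccr2 against 9.43, 114.4 and 861.6 CPM without, and the 8 resident markers summed to 1193, 3672 and 2172 CPM with Ccr2 against 4554, 6237 and 5322 CPM without. The part of these marker lists in the result was not tested.

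**Figure D2:**
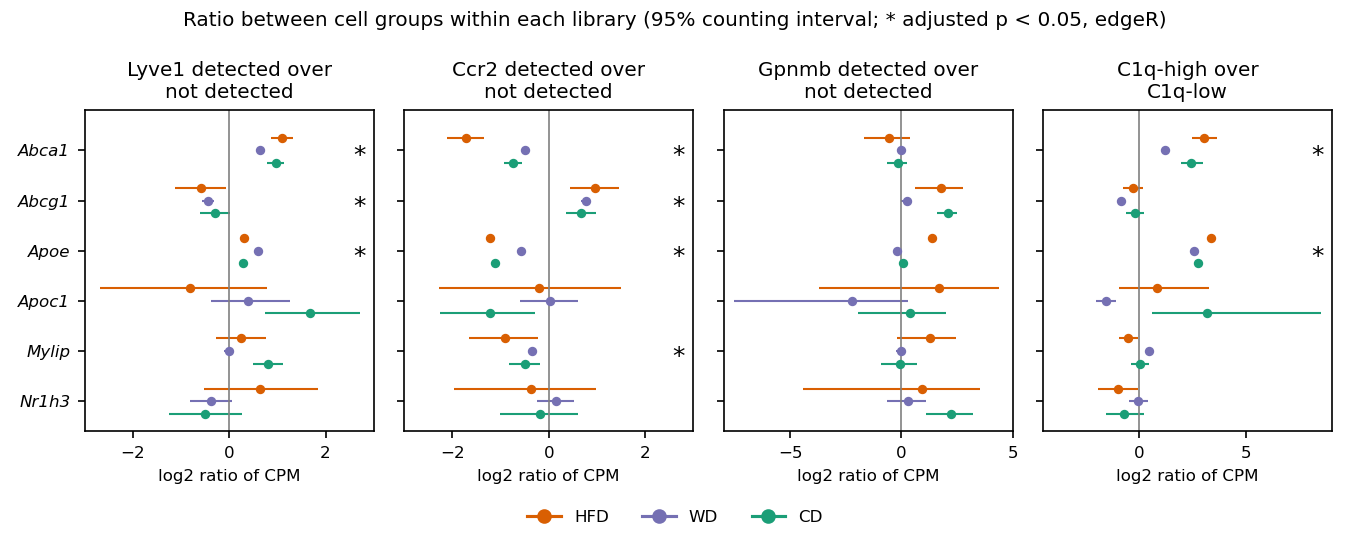
Log2 ratio of CPM between cell groups within the HFD, WD and CD libraries, for detection of Lyve1, Ccr2 and Gpnmb among C1q-high cells and for C1q-high over C1q-low cells, with exact 95% counting intervals; a star marks an edgeR adjusted p under 0.05 over the 3 libraries. The points of Abcg1 lie on the other side of 0 from Abca1 and Apoe for Lyve1 and for Ccr2 in all 3 libraries, though its interval for Lyve1 in CD includes 0.

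Cells were then grouped by Lyve1 and Ccr2 together, leaving out cells with Gpnmb. Abca1 was highest with Lyve1 alone (160.2 CPM in HFD, 564.7 in WD and 146.3 in CD) and lowest among C1q-high groups with Ccr2 alone (29.4, 255.3 and 41.1 CPM). Cells with both genes stood between these, at 74.5, 403.4 and 116.0 CPM, as did cells with neither, at 92.5, 372.1 and 91.9 CPM. Apoe did not differ much between Lyve1 alone and neither gene in HFD (29047 and 27534 CPM) or CD (27441 and 28139 CPM). In WD it was higher with Lyve1 alone (11858 CPM) than with neither gene (8695 CPM). Apoe was lowest among C1q-high groups with Ccr2 alone (10693, 4281 and 9996 CPM in HFD, WD and CD). Abcg1 was 15.9, 36.4 and 22.4 CPM with Lyve1 alone and 32.4, 81.2 and 33.4 CPM with Ccr2 alone. With neither gene it was 18.3, 45.1 and 21.6 CPM, so in CD it was not lower with Lyve1 alone than with neither. In WD, the 500 cells with both genes had a median depth of 27274.5 UMIs and those with Lyve1 alone 11986 UMIs, and no doublets were removed; the part of depth in the level of cells with both genes was not tested.

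**Figure D3:**
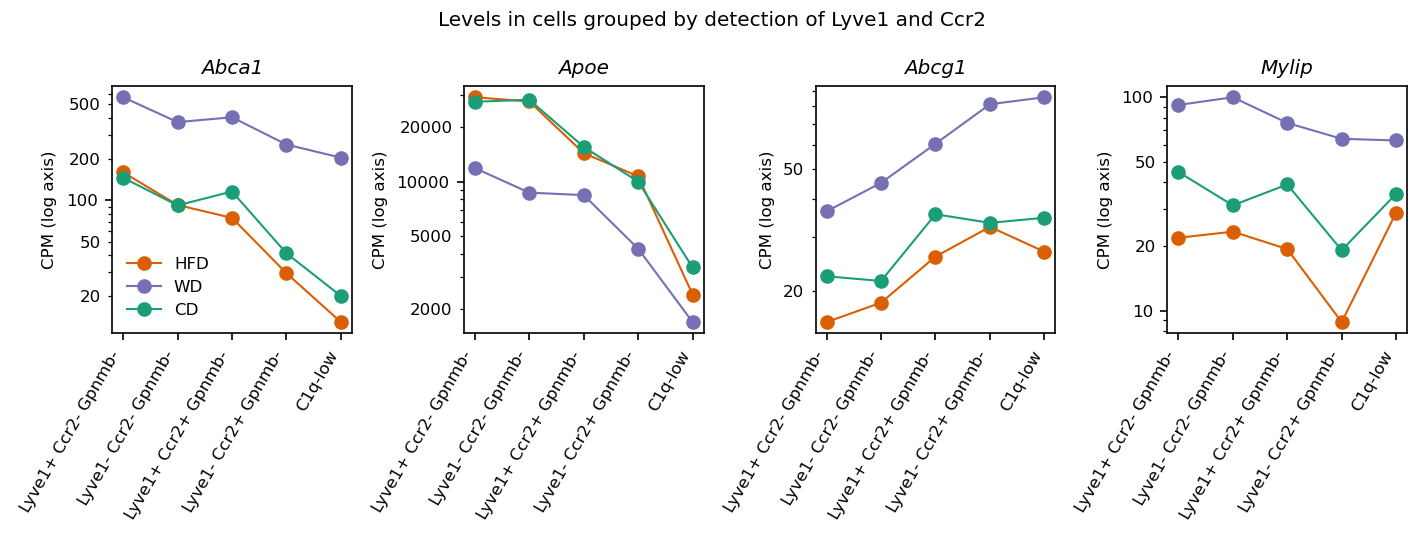
Level (CPM, log axis) of Abca1, Apoe, Abcg1 and Mylip in C1q-high cells grouped by detection of Lyve1 and Ccr2 (no Gpnmb UMI) and in C1q-low cells, with 1 line each for HFD, WD and CD. Abca1 and Apoe are lower with Ccr2 alone than with Lyve1 alone in every library, while Abcg1 is higher.

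Gpnmb, a glycoprotein of lipid-loaded macrophages, was detected in only 19 HFD, 91 WD and 44 CD cells, and no member passed the test for it. Of 10561 genes, 0.398% rose and 0.114% fell, 2 members (Abcg1 and Apoe) had an unadjusted p under 0.05 in edgeR, and DESeq2 called 0. Abcg1 had 71.3, 56.2 and 111.5 CPM with Gpnmb (9, 140 and 49 UMIs), against 20.7, 47.3 and 26.5 CPM without. It was higher in 3 of 3 libraries, by 3.45-fold, 1.19-fold and 4.21-fold in HFD, WD and CD, with a log2 fold change of 1.11 (SE 0.29, edgeR adjusted p = 0.094). Without the WD library the log2 fold change of Abcg1 was 1.99 (edgeR adjusted p = 6.7e-08) and without HFD 0.95 (0.0095). In WD the 8 lipid-associated markers summed to 1721 CPM with Gpnmb and 1154 CPM without, a smaller gap than in HFD (16853 and 2577 CPM) or CD (22522 and 2957 CPM). The 8 markers include Gpnmb, so the division by Gpnmb itself fixes part of the gap in each library. Nr1h3 had 7.93, 5.22 and 22.8 CPM with Gpnmb on 1, 13 and 10 UMIs, against 4.17, 4.25 and 4.84 CPM without (log2 fold change 1.14, SE 0.58, edgeR adjusted p = 1.00). Abca1 had 71.3, 472.2 and 95.6 CPM with Gpnmb and 104.1, 475.4 and 108.0 CPM without, and did not pass (edgeR adjusted p = 1.00).

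Apoe in the Gpnmb cells differed by library, with 61943 CPM in HFD, 8654 CPM in WD and 23603 CPM in CD, against 23944, 9994 and 22216 CPM without Gpnmb. The 19 HFD cells also had 2576 CPM of fibroblast and mural markers, 6 of 8 of which had UMIs, against 43.3 CPM in HFD cells without Gpnmb; their part in the Apoe level was not tested. Over the 3 libraries the log2 fold change of Apoe was 0.39 (SE 0.18, edgeR adjusted p = 0.85), and without WD it was 0.72 (edgeR adjusted p = 2.0e-06). The libraries left in that fit differed, at 2.59-fold in HFD and 1.06-fold in CD. That p-value therefore does not show a rise common to both.

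Between HFD and CD, Mylip and Abcg1 were lower in HFD, Abca1 and Apoe were close, and Apoc1 and Nr1h3 rested on few molecules. In C1q-high cells Mylip had 20.2 CPM in HFD (133 UMIs) and 35.6 CPM in CD (405 UMIs), a ratio of 0.567 (95% counting interval 0.462 to 0.691). The ratio was 0.507 with Lyve1 (0.378 to 0.669). Without Lyve1 it was 0.745, with an interval that included 1 (0.549 to 1.01). It lay below 1 with Ccr2 (0.434, 0.259 to 0.694) and without Ccr2 (0.578, 0.460 to 0.721). In the few cells with Gpnmb it was 1.39 (0.443 to 3.80), on 6 UMIs in HFD and 15 in CD. Abcg1 had 21.7 CPM in HFD and 29.8 CPM in CD, a ratio of 0.728 (0.595 to 0.888), short of the 1.5-fold difference used as the threshold. Abca1 had 103.5 CPM in HFD and 107.6 CPM in CD, a ratio of 0.962 (0.875 to 1.06), and Apoe 24670.1 CPM in HFD and 22270 CPM in CD, a ratio of 1.11 (1.10 to 1.11). Abca1 differed between the diets in cells with Ccr2 (38.4 CPM in HFD and 75.02 CPM in CD, ratio 0.512, 0.386 to 0.669) but had 126.5 CPM in HFD and 126.0 CPM in CD where Ccr2 was not detected (ratio 1.00, 0.905 to 1.11). In cells with Ccr2, 15.6% of 9513 genes were at least 1.5-fold lower in HFD. Classical monocyte markers summed to 43.0 CPM in HFD cells with Ccr2 and 474.6 CPM in CD cells with Ccr2. The Ccr2 cells also differed in Lyve1: leaving out Gpnmb cells, 52 HFD and 196 CD cells had it, and 340 and 425 did not. Without Lyve1, Abca1 had 29.4 CPM in HFD and 41.1 CPM in CD (40 and 90 UMIs). With Lyve1 it had 74.5 and 116.0 CPM (23 and 202 UMIs). The part of monocyte markers and of Lyve1 in the Abca1 ratio was not tested.

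Apoc1 had 2.58 CPM in HFD (17 UMIs in 16 cells) and 5.36 CPM in CD (61 UMIs in 27 cells), a ratio of 0.481 (0.263 to 0.834). In CD a single cell held 20 of the 61 UMIs and 3 cells held 49.2% of them. Without the top cell of each library the ratio was 0.632 (0.325 to 1.17), and with a mitochondrial limit of 20% it turned to 1.24, so the few Apoc1 molecules give no stable direction. Nr1h3 had 4.24 CPM in HFD and 5.53 CPM in CD (28 and 63 UMIs), a ratio of 0.767 (0.473 to 1.22) that counting error alone could give. Of 11239 genes with at least 20 UMIs over both sums, 6.74% were at least 1.5-fold higher and 8.41% at least 1.5-fold lower in HFD, against 0 and 2 of the 6 members (Apoc1 and Mylip).

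**Figure D4:**
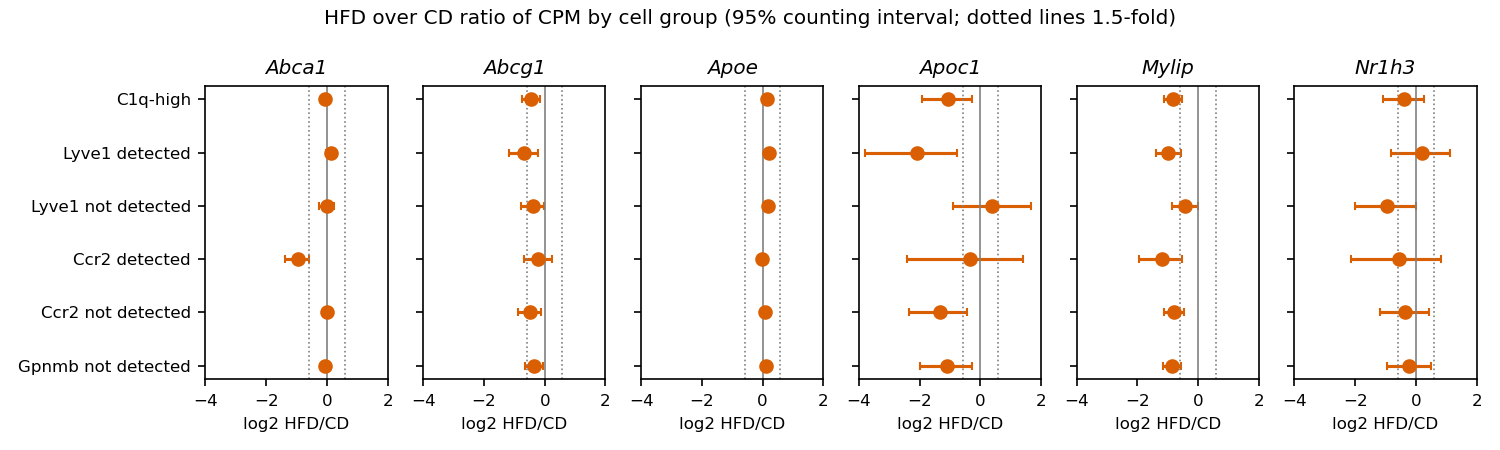
Log2 ratio of CPM, HFD over CD, for each of the 6 genes in all C1q-high cells and in the cell groups named on the left, with exact 95% counting intervals; dotted lines mark 1.5-fold. The Mylip points lie left of 0 in each row drawn, though the interval without Lyve1 includes 0. Among these rows the interval of Abca1 leaves 0 only in the cells with Ccr2. Cells with Gpnmb, where the Mylip ratio was 1.39, are not drawn.

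WD stood apart from both other libraries for most members. Abca1 had 475.3 CPM in WD and 107.6 CPM in CD, 4.42-fold higher (4.17 to 4.68). Mylip had 86.5 CPM in WD and 35.6 CPM in CD, 2.43-fold higher (2.20 to 2.70), and Abcg1 47.7 and 29.8 CPM, 1.60-fold higher (1.43 to 1.80). Apoe was lower, with 9938 CPM in WD and 22270 CPM in CD, a ratio of 0.446 (0.444 to 0.448). Apoc1 had 1.80 CPM in WD and 5.36 CPM in CD (ratio 0.337, or 0.478 without the top cells), and Nr1h3 4.29 and 5.53 CPM (0.776, 0.587 to 1.04). Against HFD the WD ratios were 4.59 for Abca1, 4.29 for Mylip, 2.20 for Abcg1, 0.403 for Apoe, 0.700 for Apoc1 and 1.01 for Nr1h3, with the WD library common to both comparisons.

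The members' share past the threshold has to be read against that of all genes. Over CD, 47.4% of 14467 genes were at least 1.5-fold higher in WD and 26.8% at least 1.5-fold lower, against 3 and 2 of the 6 members; over HFD these were 47.9% and 25.9% of 14412 genes, against 3 and 1 members. The ratio went with intron length: over CD its median log2 was -0.84 for genes with under 5 kb of introns, 0.12 for 5 to 50 kb and 1.94 for 50 kb or more, whereas the 3 medians for HFD over CD lay between -0.07 and 0.00. Abca1 has 118746 intronic bases, Abcg1 53016, Mylip 19048, Nr1h3 16259, Apoc1 2436 and Apoe 942. Within their length classes the log2 WD over CD ratios of Abca1 (2.14), Nr1h3 (-0.37) and Apoe (-1.16) lay inside the interquartile range of genes, that of Abcg1 (0.68) lay below its class and those of Mylip (1.28) and Apoc1 (-1.57) lay outside theirs, Mylip above and Apoc1 below. The sources used here do not say whether intronic reads were counted. WD differed from HFD and CD in software version, in depth, in the barcodes listed and in the share removed by the mitochondrial limit. The effect of the diet cannot be told apart from these differences.

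**Figure D5:**
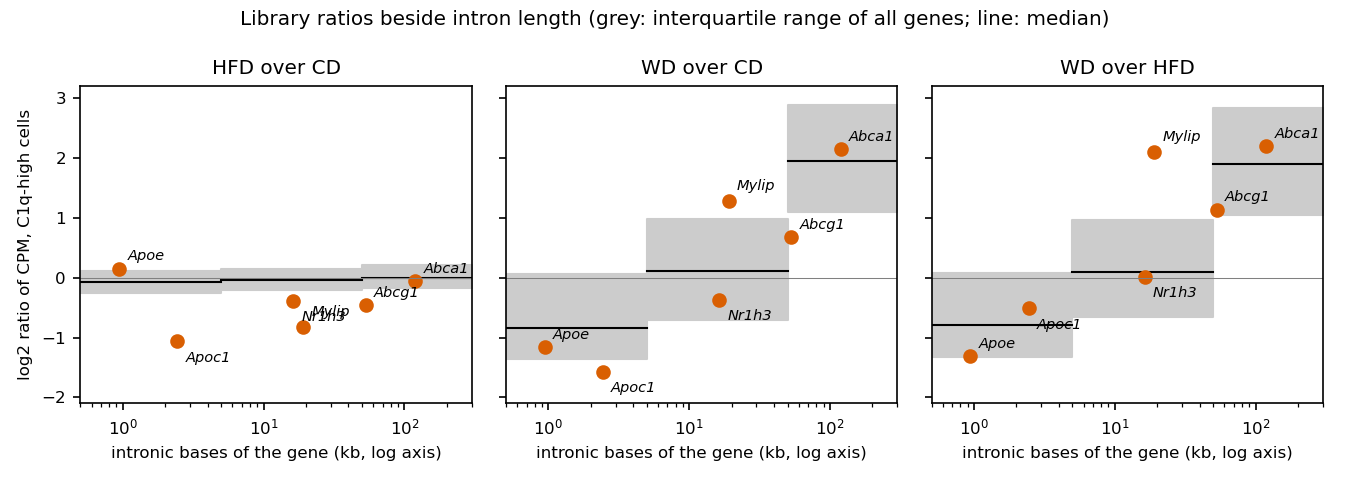
Log2 ratio of CPM between libraries in C1q-high cells against the intronic bases of each gene (kb, log axis) for HFD over CD, WD over CD and WD over HFD; points are the 6 genes, grey boxes the interquartile range and black lines the median of all genes in 3 classes of intron length. The medians step up with intron length in both comparisons with WD and stay near 0 for HFD over CD.

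The genes whose pattern was most like that of each member were found by Pearson's r of log2(CPM + 10), centred within each library, over 17 sums of at least 20 cells (up to 9 cell groups in 3 libraries, sharing library and depth), among 9685 genes. For Abca1 these were Cltc (r = 0.99), Itsn1 (0.99) and Fam213b (0.98), for Apoe they included Trf (0.99) and Pla2g7 (0.97), and for Abcg1 Snrpe (0.96), Rpsa (0.96) and Ms4a4c (0.95). Mylip was most like Tceal9 (0.92), Nuak1 (0.89) and Sema6d (0.89), Nr1h3 like Gpn1 (0.90), Bola3 (0.89) and Btf3l4 (0.89), and Apoc1, with 253 UMIs in all, like Cog6 (0.73), Zfp52 (0.70) and Mblac2 (0.69). Among the members, Abca1 went with Apoe (0.92) and against Abcg1 (-0.68), and Mylip tracked Abca1 and Apoe weakly (0.36 and 0.20).

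Other genes of the pathway were described from lists of sterol genes. Of 8 LXR partners and sensors, the retinoid X receptor gene Rxra rose with Lyve1 (log2 fold change 0.78) and fell with Ccr2 (-0.58), as did Abca1. Ch25h, which makes the LXR ligand 25-hydroxycholesterol, fell with Lyve1 (-0.96). It was close in HFD (7.86 CPM with and 8.69 CPM without) and lower in WD (7.08 and 15.0 CPM) and CD (14.7 and 28.9 CPM). The coactivator gene Ncoa1 fell with Ccr2 (-0.41), with 11.6 and 18.4 CPM in HFD, 265.0 and 364.4 CPM in WD but close values in CD (13.6 and 14.4 CPM). No other gene of the 8 passed with Lyve1 or Ccr2, and none of the 8 passed with Gpnmb or C1q. Between HFD and CD only Ch25h of the 8 passed 1.5-fold, with 8.34 CPM in HFD and 20.9 CPM in CD (ratio 0.399, 0.292 to 0.537). Over all genes, 8.41% were at least 1.5-fold lower and 6.74% higher.

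Of 15 further LXR targets, 10 were tested between cells with and without Ccr2, where 4 rose and 1 fell. The largest changes were in the desaturase gene Scd2 (log2 fold change 1.99), the apolipoprotein gene Apoc2 (1.22) and Lpl, the lipoprotein lipase gene (0.85), so members of the target list moved both with and against Abca1. Apoc2 was higher with Ccr2 in HFD (2.33 CPM with and 0 CPM without) and WD (17.95 and 6.87 CPM) but lower in CD (0.971 and 1.79 CPM). With Lyve1, Pltp, the phospholipid transfer protein gene, rose (0.86) and Arl4c (-0.60) and Lpl (-0.40) fell. Lpl was close in HFD (97.6 CPM with and 100.8 CPM without Lyve1) and lower in WD (87.7 and 99.4 CPM) and CD (178.3 and 300.3 CPM). In HFD over CD, 5 of 10 were at least 1.5-fold lower and 0 higher, against 8.41% and 6.74% of all genes. The lower genes were led by Lpl (99.4 CPM in HFD and 231.7 CPM in CD), Smpdl3a (73.4 and 116.8 CPM) and Pltp (666.3 and 1040.4 CPM). The median log2 ratio was -0.47 over the list, against -0.42 over the members and -0.03 over all genes. With Gpnmb, 1 of 10 rose, Smpdl3a (1.31).

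Sterol synthesis and uptake genes, which are driven by SREBP2 when cell cholesterol is low, were higher in part in cells with Ccr2. Of 14 synthesis genes 4 rose and 0 fell there, among them Sqle (log2 fold change 1.20) and Cyp51 (1.07), and of 13 uptake, storage and transport genes 3 rose and 0 fell, among them Stard4 (0.88) and the HDL receptor gene Scarb1 (0.60). Sqle was close in HFD (2.33 CPM with and 2.255 CPM without Ccr2) and higher in WD (3.12 and 1.20 CPM) and CD (3.40 and 1.24 CPM). With Gpnmb, the cholesterol esterifying and hydrolysing enzyme genes Soat1 (1.29) and Nceh1 (1.17) rose. Of 7 genes of the PPAR gamma axis, Fabp5 (1.60) and Pparg (0.88) rose and Cd36 (-0.50) fell with Ccr2, while Fabp5 (-1.40), Pparg (-1.20) and Fabp4 (-0.73) fell with Lyve1, where 2 others rose, and Fabp5 rose with Gpnmb (3.94). All these calls are from edgeR's quasi-likelihood test at an adjusted p of 0.05, and the shares of all genes called are those given above. Between HFD and CD, 2 of 14 synthesis genes were at least 1.5-fold higher and 1 lower, 1 of 13 uptake, storage and transport genes higher and 1 lower (the lipid droplet gene Plin2, 191.6 CPM in HFD and 333.0 CPM in CD), and 1 of 7 PPAR gamma axis genes higher and 3 lower, the fatty acid transporter gene Cd36 among them (251.9 CPM in HFD and 451.0 CPM in CD). Over all genes, 6.74% were at least 1.5-fold higher and 8.41% lower, so 1 gene of 13 or 14 is near the share of all genes.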

How the data were processed

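Raw UMI counts per gene and barcode were used as deposited; per the file headers they were written by alignment software of version 7.2.0 for WD and 3.0.1 for HFD and CD, and per the submitters' processing notes the build was GRCm38, with Seurat also named. The sources used here do not give the authors' cell filters or counting of introns. Library totals were 16630481 (HFD), 79269380 (WD) and 17464149 (CD) UMIs. The 6 genes and all lists were chosen with earlier results of these data known.

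Counts were summed per library and cell group and scaled to CPM over the 30406 genes shared by Ensembl ID. A gene counted as detected at 1 UMI. Poisson, conditional binomial and Clopper-Pearson intervals at 95% cover counting error only. Diet ratios have no test, and 1.5-fold or more, over genes with at least 20 UMIs, was the threshold. Cell groups were tested with edgeR 4.0.16 in R 4.3.3 (TMM, filterByExpr, glmQLFit and glmQLFTest) on 6 sums, with the library as a block, since both sums come from 1 library; the 3 libraries differ in diet, and their p-values measure the spread between these libraries; p-values were adjusted by Benjamini-Hochberg over all genes. The SE is the log2 fold change divided by the square root of F. The script was tested on simulated data. Shares were taken after thinning cells to 1000 UMIs, which left out no cell. No doublets were removed in the main values. All 6 genes are named in every comparison; of the other lists, counts are given, with up to 3 called genes of the largest change (for diets with at least 100 UMIs), and for likeness the 3 genes of highest r, apart from some genes that are not reported here. The annotation was GENCODE vM21 of GRCm38. Promoters were matched by symbol for 4 of the 6 genes (RefSeq, GRCm38.p6). Alternatives were other UMI (500, 2000), mitochondrial (5%, 20%) and C1q (0.1%, 1%) limits, removal of the highest doublet scores, thinning, other scaling, DESeq2 1.42.0, no filter, no block, other detection rules and leaving out each library.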

Additional observations from a re-analysis of the deposited data

Results flagged for a closer look

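In barcodes of 10 to 100 UMIs, which enter no comparison, all 6 genes had UMIs above the limit that a count of 0 allows in HFD, and 5 did in CD. The levels in HFD were 8846 CPM for Apoe, 58.8 CPM for Abca1, 8.26 CPM for Mylip, 7.51 CPM for Apoc1, 5.76 CPM for Abcg1 and 3.0 CPM for Nr1h3. The levels in CD were 7959 CPM for Apoe, 29.9 CPM for Abca1, 10.2 CPM for Mylip, 8.51 CPM for Abcg1 and 1.70 CPM for Nr1h3, with 2 UMIs of Apoc1. Apoc1 was the gene for which the near-empty HFD barcodes stood above the HFD C1q-high cells (2.58 CPM), and it also stood at 38.4 CPM (28 UMIs) in the 367 HFD barcodes removed by the mitochondrial limit.

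Libraries differed in direction for 3 genes, with intervals on opposite sides of 1 in at least 2 libraries; the differences were not tested. The ratio of Apoe in C1q-high cells with Gpnmb over those without was 2.59 in HFD and 0.866 in WD, and 1.06 in CD. The ratio of Apoc1 in C1q-high over C1q-low cells was 0.336 in WD and 8.80 in CD, where C1q-low cells held 1 UMI. The ratio of Mylip in C1q-high over C1q-low cells was 0.700 in HFD and 1.38 in WD.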

How the results depend on the processing

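Of the diet ratios of single members under other settings, 161 moved by less than their interval, 36 by more, and 1 reversed: Apoc1, HFD over CD, at 1.24 with the 20% mitochondrial limit. With that limit 1 member, not 2, was at least 1.5-fold lower in HFD than in CD, and 2, not 1, were lower in WD than in HFD; thinning to 1000 UMIs and TMM scaling also gave 2. TMM moved the log2 ratios of C1q-high cells by 0.02 (HFD over CD), -0.15 (WD over CD) and -0.10 (WD over HFD). Of the member fold changes between cell groups, 345 kept their side of the threshold, 29 lost it, 14 gained it and 0 reversed.

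Without the library block, 0 members and 0 genes were called for Lyve1, Ccr2, Gpnmb or C1q; each pair of sums comes from 1 library. For Lyve1, 1554 genes were called in all, 1012 in DESeq2 and 930 after thinning; 0 members were lower in DESeq2, after thinning and at the 1% C1q limit, where 1 was higher. Leaving out each library gave 1 to 2 members higher and 0 to 1 lower. For Ccr2, 1667 genes were called, 1047 in DESeq2, 774 after thinning, 837 at the 1% C1q limit and 767 to 1699 with a library left out, with 1 to 3 members lower. For Gpnmb, 54 genes were called, 83 with DESeq2 size factors, 168 with no filter, 18 in DESeq2, 84 at 2000 UMIs, 148 at the 5% mitochondrial limit, 163 without the highest doublet scores, 92 at either C1q limit, 306 with detection at 2 UMIs and 328 with detection after thinning. Members called higher for Gpnmb numbered 1 with DESeq2 size factors, no filter, 2000 UMIs, the 5% mitochondrial limit or doublets removed, and 2 under the other detection rules; leaving out libraries gave 0 to 2 members and 35 to 339 genes. For C1q, 867 genes were called, 1517 with no filter, 2123 in DESeq2, 1308 at the 5% mitochondrial limit, 507 after thinning, 1406 and 385 at C1q limits of 0.1% and 1%, and 0 to 3791 with a library left out. Members higher for C1q numbered 1 at the 20% mitochondrial limit and after thinning, 0 at the 1% C1q limit and 0 to 2 with a library left out. Of the 18 nearest genes by pattern, 8 to 12 stayed among the 10 nearest with a library left out, and 12 without the C1q-low sums, an alternative chosen after seeing the data; only 6 of the 18 were then still among the 3 nearest, with 1 for Abca1 (Cltc) and 0 for Apoc1. The cause of these moves was not tested.

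Depth limits Apoc1 and Nr1h3 most, at 17 to 108 and 28 to 257 UMIs in C1q-high cells per library.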

Other observations

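Barcodes above the mitochondrial limit belong to no comparison. They held Abca1 at 109.8 CPM in HFD, 548.3 CPM in WD and 162.6 CPM in CD, and Apoe at 18424 CPM in HFD, 4399 CPM in WD and 17961 CPM in CD.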
